A study of Mus musculus with 12 samples.

Results

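Homing integrins, inflammatory chemokine receptors and the selectin ligand PSGL-1 were examined in CD4 T cells sorted from mouse kidneys, as 9 genes (Itga4, Itgb1, Itgb7, Itgal, Itgb2, Ccr2, Cxcr4, Cx3cr1 and Selplg) of the 52632 in the deposited table. They were chosen by symbol as a functional set, and all 9 had a mean of at least 1 FPKM (fragments divided by transcript length and by library total), the filter that left 19288 genes for testing. The 12 libraries fall into 4 groups of 3. KO IRI and KO control are from mice labelled CD4 Keap1 KO on a C57BL6/J background and bred in house, and WT IRI and WT control are from purchased C57BL6/J mice, so the genotypes also differ in where the mice came from, and these cannot be told apart. IRI (ischemia reperfusion injury) was induced by clamping the vessels of both kidneys for 30 min, and tissue was taken 24 h later. The labels name neither sham surgery for the controls, nor the Cre line or the deleted exons behind the KO, nor the sex or age of the mice. They also do not say that the 3 libraries of a group are separate animals, and the spread behind every p-value is therefore that between libraries, which may be technical.

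Circulating lymphocytes enter tissue in steps. PSGL-1, the glycoprotein encoded by Selplg, rolls on selectins of the vessel wall, chemokine receptors then signal the cell to stop, and integrins, each a pair of an alpha and a beta chain, hold it to the wall. Itgal and Itgb2 encode the chains of LFA-1, which binds ICAM-1, while Itga4 pairs with Itgb1 as VLA-4, which binds VCAM-1 and fibronectin, or with Itgb7 as LPAM-1, which binds MAdCAM-1 in the gut. CCR2 responds to CCL2 and related chemokines and CX3CR1 to the membrane-bound chemokine CX3CL1, both known for recruitment to inflamed tissue. CXCR4 responds to CXCL12 and is known for retention in bone marrow and other tissue.

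The genes lie on 8 mouse chromosomes (GRCm38, GENCODE M21 gene bounds). Itga4 is on chromosome 2 (79255426 to 79333123), Itgb1 on chromosome 8 (128685654 to 128733200) and Itgb7 on chromosome 15 (102215995 to 102231944). Itgal is on chromosome 7 (127296260 to 127335138) and Itgb2 on chromosome 10 (77530252 to 77565708). Ccr2 (124101950 to 124113557) and Cx3cr1 (119901616 to 120069879) are both on chromosome 9, Cxcr4 is on chromosome 1 (128588199 to 128592293) and Selplg on chromosome 5 (113818536 to 113832644). Itga4 overlaps Cerkl on the opposite strand, which read 8.64 to 26 FPKM, and the annotated span of Cx3cr1 overlaps 9 other genes, of which Csrnp1 on the same strand read 22.8 to 59.8 FPKM. How the authors' counting assigned reads shared between genes is not given in the sources used here.

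Promoter windows of 250 bases before to 50 after the start site are held for 6 of the 9 genes in the RefSeq table of GRCm38.p6. Those of Itgb7, Itgb1 and Cxcr4 are shown, the beta chains because they fell after IRI and Cxcr4 because it was the one gene of the set whose log2 difference after IRI was above 0. Capitals mark CACCC, a core of KLF sites, TGACNNNGC, a core of NRF2 elements (Keap1 restrains NRF2), ACGTG, a core of hypoxia elements, and GGTGTGA, a core of T-box sites, on either strand.
Itgb7, chr15:102231886-102232185, minus strand: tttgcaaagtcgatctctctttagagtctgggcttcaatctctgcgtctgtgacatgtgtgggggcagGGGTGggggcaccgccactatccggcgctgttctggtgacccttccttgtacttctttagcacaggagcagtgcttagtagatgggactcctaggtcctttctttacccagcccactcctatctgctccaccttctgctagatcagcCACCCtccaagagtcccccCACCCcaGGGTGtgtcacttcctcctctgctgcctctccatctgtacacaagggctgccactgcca
Itgb1, chr8:128685404-128685703, plus strand: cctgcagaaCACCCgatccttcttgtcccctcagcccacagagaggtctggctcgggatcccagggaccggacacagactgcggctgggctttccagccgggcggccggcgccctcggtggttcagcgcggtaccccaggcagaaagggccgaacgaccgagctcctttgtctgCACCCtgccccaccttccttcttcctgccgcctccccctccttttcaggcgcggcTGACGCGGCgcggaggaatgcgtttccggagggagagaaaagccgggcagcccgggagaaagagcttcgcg
Cxcr4, chr1:128592250-128592549, minus strand: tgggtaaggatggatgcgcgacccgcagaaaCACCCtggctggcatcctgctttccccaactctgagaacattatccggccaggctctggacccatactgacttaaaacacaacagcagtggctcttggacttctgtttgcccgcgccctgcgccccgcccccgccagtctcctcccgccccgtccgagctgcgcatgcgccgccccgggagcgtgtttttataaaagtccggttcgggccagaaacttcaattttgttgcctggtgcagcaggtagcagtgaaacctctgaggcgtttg
CACCC matched at 4 places in the Itgb7 window, 2 in that of Itgb1 and 1 in that of Cxcr4, and 57.5% of the 32851 windows in the table hold it. TGACNNNGC matched once, in the Itgb1 window 21 bases before the start site, and 12.4% of all windows hold it. ACGTG (19.6% of all windows) matched in none of the 6 windows, and GGTGTGA (3.98%) matched in Itga4 alone, where it overlaps a CACCC match on the other strand. These are matches of letters and no record of binding.

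The libraries carried the T cell label and differed in scale. All 10 T cell markers were above 0 in every library, Cd4 at 149 to 237 FPKM in KO IRI, 183 to 382 in KO control, 49.7 to 70.7 in WT IRI and 85.7 to 101 in WT control. Keap1 remained at 4.59 to 7.77 FPKM in KO and 6.03 to 9.87 in WT, which does not check a deletion of unnamed exons, while the NRF2 target Nqo1 was 3.38 to 7.75 FPKM in KO and at most 0.543 in WT. Summed FPKM ran from 739969 to 2089551, lowest in WT IRI 3 (739969) and WT control 3 (859343), and the median-ratio scaling factor was highest in KO control 1 (1.336, against 0.7546 to 1.224 elsewhere). These 3 libraries stand apart and are left out where stated. FPKM carries no counts, so sequencing depth and counting error cannot be given. Over all tested genes the median difference of KO from WT was a log2 of 0.299 in controls and 0.255 after IRI, and 0.0142 and 0.019 after each library was divided by its median ratio to the geometric mean (rescaled), so differences between genotypes are given on both scales.

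The set was abundant, Cx3cr1 apart. In WT control the order of mean FPKM was Itgb2 (179 ± 18.7), Itgb1 (164 ± 5.71), Itgal (128 ± 27.2), Selplg (106 ± 13.9), Itga4 (105 ± 17.3), Itgb7 (93.8 ± 5.39), Cxcr4 (56.2 ± 15.8), Ccr2 (56.2 ± 4.02) and Cx3cr1 (5.79 ± 1.04; SD, n = 3). Ranges of neighbours overlapped along this order except between Itgb1 and Itgal, Itgb7 and Cxcr4, and Ccr2 and Cx3cr1. In WT IRI Cxcr4 held the highest mean (84.3 ± 25.7 FPKM), with a range that overlapped those of Itga4, Selplg and Itgb2, and in KO IRI it was second to Itga4 (126 ± 44.1 and 131 ± 55.3 FPKM). Ccr2 and Cx3cr1 ranked 8 and 9 in all 4 groups.

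**Figure D1:**
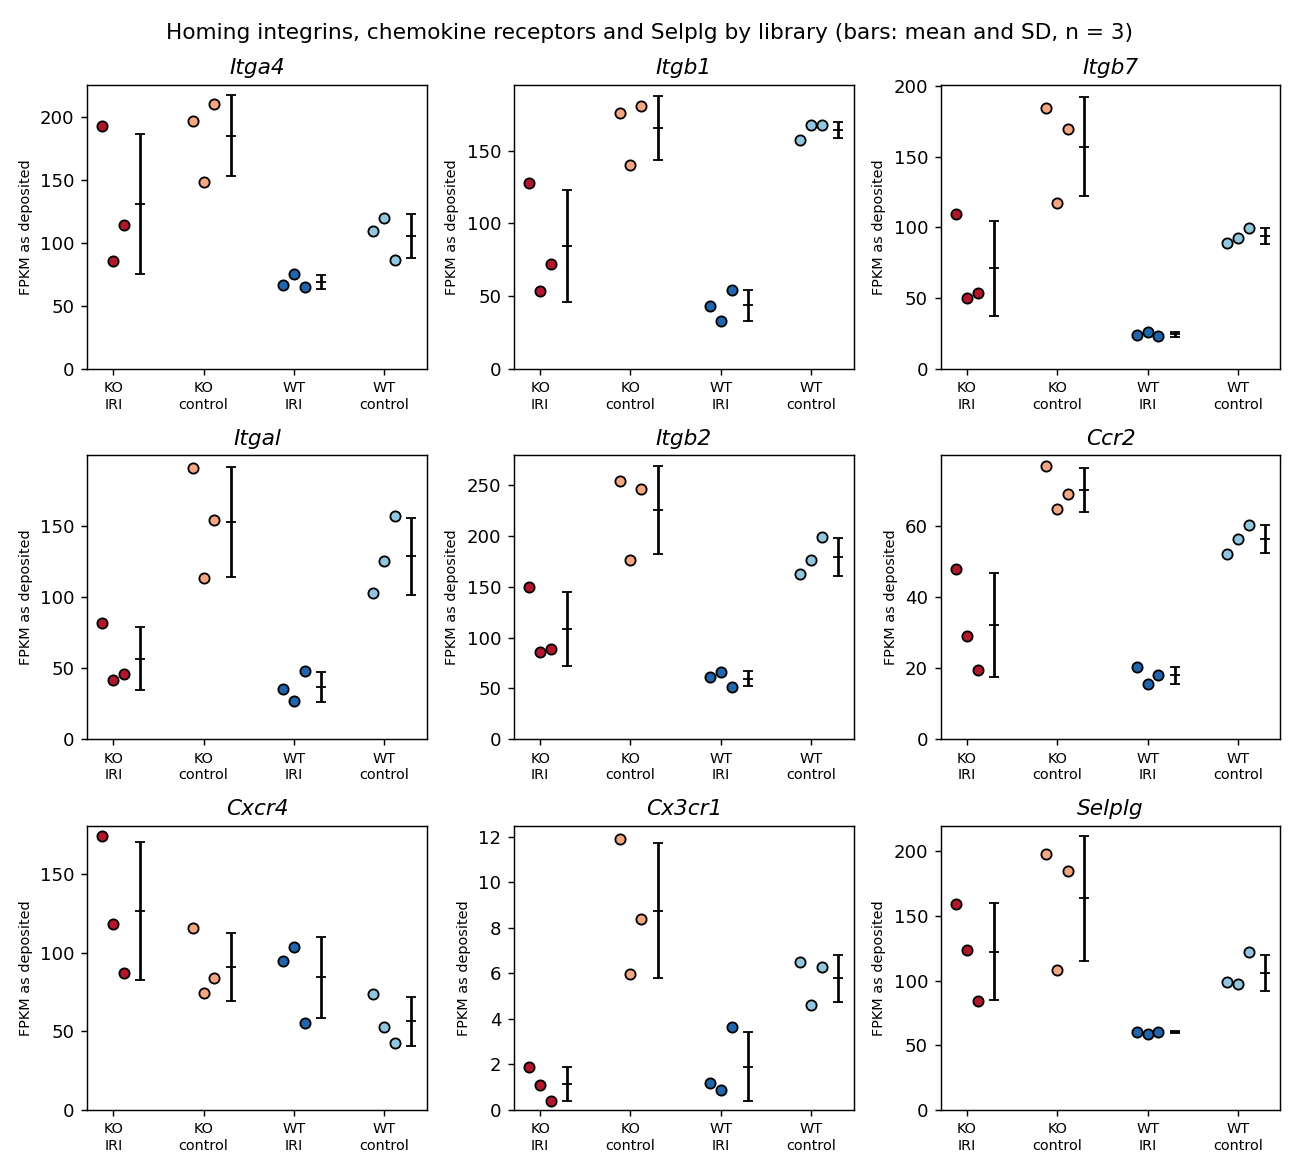
Deposited FPKM of the 9 genes, 1 panel per gene, with 1 point per library and the mean ± SD (n = 3) beside each group, KO IRI and KO control left of WT IRI and WT control. For Itgb1, Itgb7, Itgal, Itgb2, Ccr2 and Cx3cr1 every IRI library sits below every control library of its genotype, whereas the points of Cxcr4 sit higher on average after IRI and overlap the controls.

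After injury 6 of the 9 genes fell in the average over both genotypes, IRI against control, while Cxcr4 was the only one of the 9 with a difference above 0. The 6 were all 3 beta chains (Itgb1, Itgb7, Itgb2), the LFA-1 alpha chain Itgal and the chemokine receptors Ccr2 and Cx3cr1. The alpha chain Itga4 and Selplg were lower without passing the threshold. Among all tested genes 6.03% passed as lower in this comparison and 3.01% as higher, 9.04% in all (limma on log2(FPKM + 1), Benjamini-Hochberg adjusted p under 0.05). The median log2 difference of the 9 genes was -1.40, against -0.00349 over all tested genes. The 6 were also lower in every IRI library than in every control library in both genotypes, as were 4.7% of all tested genes, or 5 without Cx3cr1 after rescaling (5.48%). Within WT alone 8 of the 9 did not overlap (14.4% of tested genes), and within KO alone 6 (9.15%).

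Both LFA-1 chains fell. Itgb2, the beta chain that LFA-1 shares with other leukocyte integrins, was 150.2, 85.8 and 89.1 FPKM in KO IRI, against 254, 176 and 246 in KO control, and 61.8, 65.8 and 51.8 FPKM in WT IRI, against 163, 176 and 199 in WT control. Its averaged log2 difference was -1.33 ± 0.17 (SE, n = 6, adjusted p = 0.00137). Itgal was 81.8, 41.7 and 46.0 FPKM in KO IRI, against 190, 114 and 154 in KO control, and 35.6, 26.9 and 48.1 FPKM in WT IRI, against 103, 126 and 157 in WT control. KO IRI 1 was the highest of its group for both chains. Itgal differed by -1.62 ± 0.22 (adjusted p = 0.00183).

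The beta chains that pair with Itga4 fell as well. Itgb7 was 109, 50.2 and 53.3 FPKM in KO IRI, against 184, 117 and 170 in KO control, and 23.6, 26.1 and 23.3 FPKM in WT IRI, against 89.0, 92.7 and 99.7 in WT control. The KO libraries came close to each other (109 against 117), whereas the WT groups were far apart. Its averaged log2 difference was -1.55 ± 0.20 (SE, n = 6, adjusted p = 0.00127). Itgb1 was 128, 53.5 and 71.9 FPKM in KO IRI, against 176, 140 and 181 in KO control, and 43.4, 33.0 and 54.2 FPKM in WT IRI, against 157, 167 and 167 in WT control. No IRI library reached the controls of its genotype, and the averaged difference was -1.48 ± 0.21 (limma adjusted p = 0.00201).

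Their alpha partner Itga4 did not pass. It was 193, 85.8 and 115 FPKM in KO IRI, against 196, 149 and 211 in KO control, and 66.2, 75.0 and 65.3 FPKM in WT IRI, against 110, 120 and 86.2 in WT control. The WT groups did not overlap, whereas KO IRI 1 lay within the range of KO control. The averaged log2 difference was -0.58 ± 0.20 (SE, n = 6, adjusted p = 0.101).

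The inflammatory chemokine receptors were among the genes that fell. Ccr2 was 47.9, 29.1 and 19.3 FPKM in KO IRI, against 76.7, 64.7 and 68.8 in KO control, and 20.3, 15.4 and 18.1 FPKM in WT IRI, against 52.2, 56.3 and 60.2 in WT control. The groups did not overlap in either genotype, and the averaged log2 difference was -1.40 ± 0.19 (SE, n = 6, adjusted p = 0.00174). Cx3cr1 was 1.87, 1.10 and 0.402 FPKM in KO IRI, against 11.9, 5.97 and 8.41 in KO control, and 1.17, 0.870 and 3.64 FPKM in WT IRI, against 6.48, 4.60 and 6.28 in WT control. The groups did not overlap as deposited, but WT IRI 3 stood close to WT control and lay within its range after rescaling. Cx3cr1 differed by -1.78 ± 0.27 (adjusted p = 0.00306), on a scale that understates the change of low genes. Its size moved with the pseudocount, to -2.41 with 0.1 and -0.91 with 5, where it was smaller than those of the other 5 genes that fell (-1.54 to -1.25).

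Cxcr4 and Selplg did not pass. Cxcr4 was 174, 118 and 86.9 FPKM in KO IRI, against 115, 74.1 and 83.8 in KO control, and 94.5, 103 and 55.1 FPKM in WT IRI, against 73.4, 52.8 and 42.4 in WT control. The groups overlapped in both genotypes, and its averaged log2 difference was 0.50 ± 0.23 (SE, n = 6, adjusted p = 0.226). Selplg was 160, 124 and 84.0 FPKM in KO IRI, against 198, 108 and 185 in KO control, and 60.2, 59.0 and 60.5 FPKM in WT IRI, against 98.7, 97.7 and 122 in WT control. The WT groups were apart and the KO groups overlapped, with an averaged difference of -0.61 ± 0.19 (adjusted p = 0.0805).

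All 6 passed this averaged test under all 23 alternatives run, with an adjusted p by limma of at most 0.0348, reached by Ccr2. Without the 3 libraries that stand apart, the 6 differences were between -1.19 for Itgb2 and -1.84 for Cx3cr1.

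Within WT, 5 genes passed and 0 were higher, against 2.59% of tested genes lower and 1.19% higher (3.78% in all). They were Itgb1 (-1.92 ± 0.29, adjusted p = 0.00738), Itgb7 (-1.91 ± 0.28, 0.00669), Itgal (-1.79 ± 0.31, 0.0130), Ccr2 (-1.60 ± 0.27, 0.0107) and Itgb2 (-1.57 ± 0.24, 0.00783; log2 ± SE, n = 3). Cx3cr1 (-1.34 ± 0.38, adjusted p = 0.0870) and Selplg (-0.81 ± 0.28, 0.143) did not pass. The count was 0 by limma after scaling to a common sum, where the differences of these 5 were -1.91 to -1.57 (adjusted p = 0.0787 to 0.157), and 3 without WT IRI 2 (1.32% of tested genes). Without the 3 libraries that stand apart it was 0 as deposited, with differences of -2.07 to -1.39 (limma adjusted p = 0.0655 to 0.117), and 5 after rescaling (3.8%), namely Itgb1, Itgb7, Itgal, Itgb2 and Cx3cr1.

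Within KO, only Cx3cr1 passed as deposited, at a log2 of -2.22 ± 0.38 (SE, n = 3, adjusted p = 0.0305), against 0.539% of tested genes lower (0.866% in all). After rescaling Itgb2 (-0.98 ± 0.18, adjusted p = 0.0248) and Itgb7 (-1.10 ± 0.23, 0.0426) passed beside it (1.1% of tested genes lower, 2.06% in all). As deposited Itgal (-1.45 ± 0.31, 0.0603), Itgb2 (-1.08 ± 0.24, 0.0724), Ccr2 (-1.19 ± 0.27, 0.0719), Itgb7 (-1.20 ± 0.28, 0.0817) and Itgb1 (-1.05 ± 0.29, 0.135) did not pass. KO IRI 1 was the highest KO IRI library for all 9 genes, and without it 6 genes passed (1.58% of tested genes), and 4 passed without KO control 2 (4.4%). The count was 0 without KO IRI 2, KO IRI 3, KO control 1, KO control 3, WT IRI 1 or any WT control library.

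Whether the response differed between genotypes was tested by the interaction. None of the 9 genes passed (limma, 0 of 9 as deposited and rescaled), and 0.00518% of tested genes passed. An unadjusted p was under 0.05 for 0 of the 9 as deposited and 1 rescaled, against 3.35% and 4.87% of tested genes. The largest interaction values were 0.87 ± 0.42 for Itgb1, -0.88 ± 0.54 for Cx3cr1 and 0.70 ± 0.40 for Itgb7 (log2 ± SE, n = 3, adjusted p = 0.9995 each), where a positive value means a smaller fall or a larger rise in KO. With errors of this size a threshold passed in one genotype alone does not show that the genotypes differ.

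**Figure D2:**
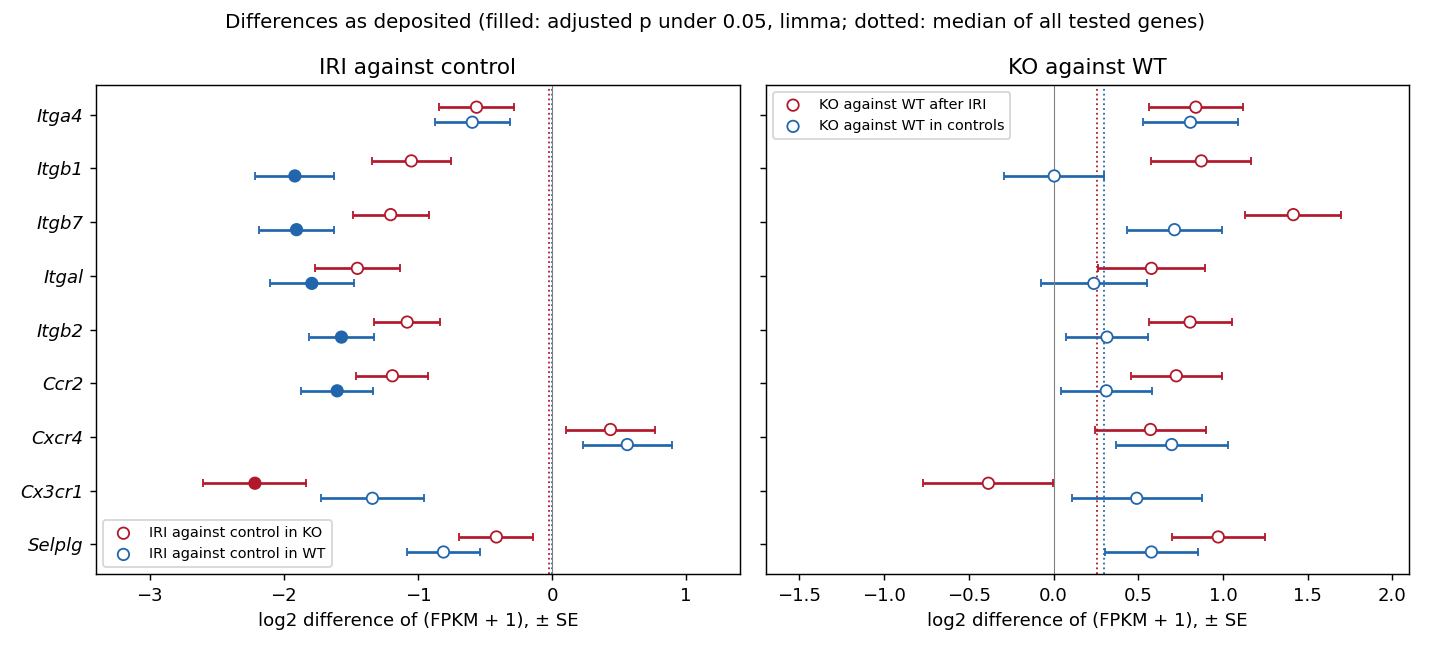
Log2 differences of (FPKM + 1) with their SE for the 9 genes, IRI against control in KO (red) and WT (blue) on the left, and KO against WT after IRI (red) and in controls (blue) on the right. Filled points passed an adjusted p of 0.05 and dotted lines give the median of all tested genes, which sits near 0 on the left and at 0.255 and 0.299 on the right.

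T cell markers fell after IRI too, so the fall of the set was set against them. Their mean log2(FPKM + 1), over Cd3e, Cd3d, Cd3g, Cd247, Cd4, Lck, Lat, Trac, Cd5 and Cd28, was 6.98 ± 0.19 in KO IRI and 7.59 ± 0.31 in KO control, and 5.90 ± 0.12 in WT IRI and 6.92 ± 0.09 in WT control (SD, n = 3). The difference was -0.81 (exact permutation test within genotype, two-sided, p = 0.005, the smallest its 400 arrangements allow). By limma 6 of the 10 passed as lower and 0 as higher, against 6.03% and 3.01% of all tested genes. In bulk samples fewer cells of a type and less RNA per cell cannot be told apart.

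Relative to the T cell markers of the same library, a measure that depends little on scaling between libraries and was chosen after the data were seen, the set split. Itgal (-0.81, adjusted p = 0.03), Itgb7 (-0.74, 0.036), Itgb1 (-0.67, 0.0386), Ccr2 (-0.58, 0.036) and Itgb2 (-0.51, 0.03) were lower after IRI (log2, exact permutation test within genotype, two-sided, adjusted over 18 tests). Cxcr4 was higher by 1.31 (adjusted p = 0.03). The markers' own difference of -0.81 enters this value, and a gene with no difference would also stand higher. As deposited Cxcr4 itself differed by 0.50 (limma adjusted p = 0.226), and the median over all tested genes was -0.00349. The shares of all genes higher and lower on this measure were not computed. Levels of Cxcr4 relative to the markers were 0.27, 0.10 and -0.50 in KO IRI, against -0.85, -1.01 and -1.41 in KO control, and 0.56, 0.80 and 0.03 in WT IRI, against -0.60, -1.20 and -1.54 in WT control. On this measure the groups did not overlap in either genotype, unlike on the FPKM scale. Cx3cr1 (-0.96, adjusted p = 0.0573), Itga4 (0.24, 0.208) and Selplg (0.20, 0.212) did not pass. Without the 3 libraries that stand apart 0 of the 9 passed by the exact permutation test (60 arrangements, which allow a p of 0.0167 at the smallest, and lowest adjusted p = 0.1125), with a difference of 1.38 for Cxcr4 and -0.82 for Itgal. With 1 library left out in turn, Cxcr4 and Itgb2 passed in 11 of 12 cases, Itgal and Itgb7 in 10, Ccr2 in 8 and Itgb1 in 6.

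**Figure D3:**
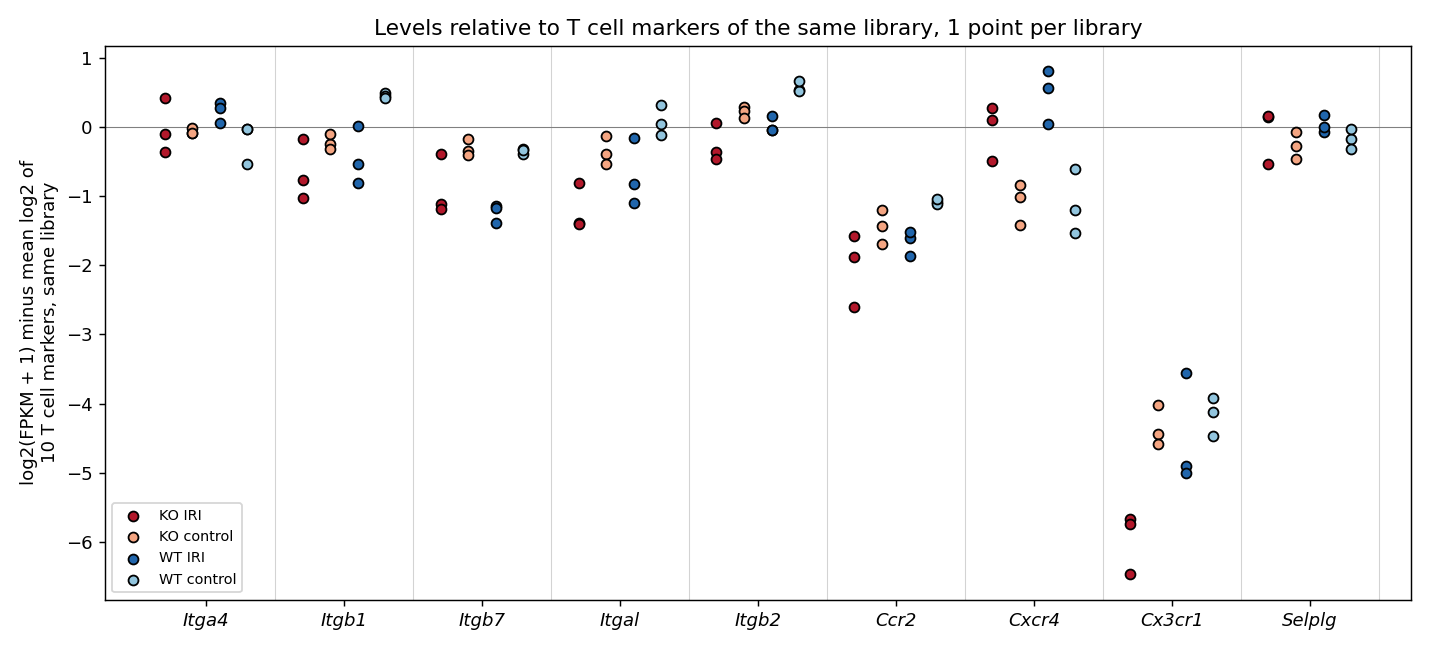
Log2(FPKM + 1) of each gene minus the mean log2 of 10 T cell markers in the same library, 1 point per library, in the order KO IRI, KO control, WT IRI, WT control. Cxcr4 is the one gene whose IRI points all lie above the control points of their genotype, and Cx3cr1 lies lowest, at -6.47 to -3.56.

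Ratios of partner chains within a library also depend little on scaling. The log2 ratio of Itga4 to Itgb1 was 0.59, 0.67 and 0.66 in KO IRI, against 0.16, 0.08 and 0.22 in KO control, and 0.60, 1.16 and 0.27 in WT IRI, against -0.52, -0.48 and -0.95 in WT control. No IRI library overlapped the controls of its genotype. The ratio was higher after IRI by 0.90 (exact permutation test within genotype, two-sided, p = 0.005, adjusted p = 0.02 over 8 tests). The log2 ratio of Itga4 to Itgb7 was 0.81, 0.76 and 1.09 in KO IRI, against 0.09, 0.34 and 0.31 in KO control, and 1.45, 1.49 and 1.45 in WT IRI, against 0.30, 0.37 and -0.21 in WT control. The groups were again apart, with a difference of 0.98 (exact permutation p = 0.005, adjusted p = 0.02). Both differences passed under all 15 alternatives. The alpha chain thus stood higher relative to either beta chain after IRI in 6 of 6 libraries, against the controls of the same genotype.

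The ratio between the beta chains Itgb1 and Itgb7 differed with genotype. The log2 ratio of Itgb1 to Itgb7 differed by 0.07 between IRI and control (exact permutation p = 0.645, adjusted p = 0.645). Between KO and WT it differed by -0.63 (exact permutation test within condition, p = 0.01, adjusted p = 0.0267). It was 0.22, 0.09 and 0.43 in KO IRI and -0.07, 0.25 and 0.09 in KO control, against 0.85, 0.33 and 1.18 in WT IRI and 0.82, 0.84 and 0.74 in WT control. The control groups did not overlap, while WT IRI 2 lay within the range of KO IRI. Without the 3 libraries that stand apart the difference was -0.50 (adjusted p = 0.1). The ratio of Itgal to Itgb2 averaged -0.94 ± 0.08 in KO IRI, against -0.57 ± 0.14 in KO control, and -0.72 ± 0.58 in WT IRI, against -0.50 ± 0.16 in WT control (SD, n = 3). It differed by -0.30 after IRI (exact permutation p = 0.115, adjusted p = 0.167), and by -0.45 (adjusted p = 0.0133) without WT IRI 3, the one IRI library above the controls of its genotype.

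**Figure D4:**
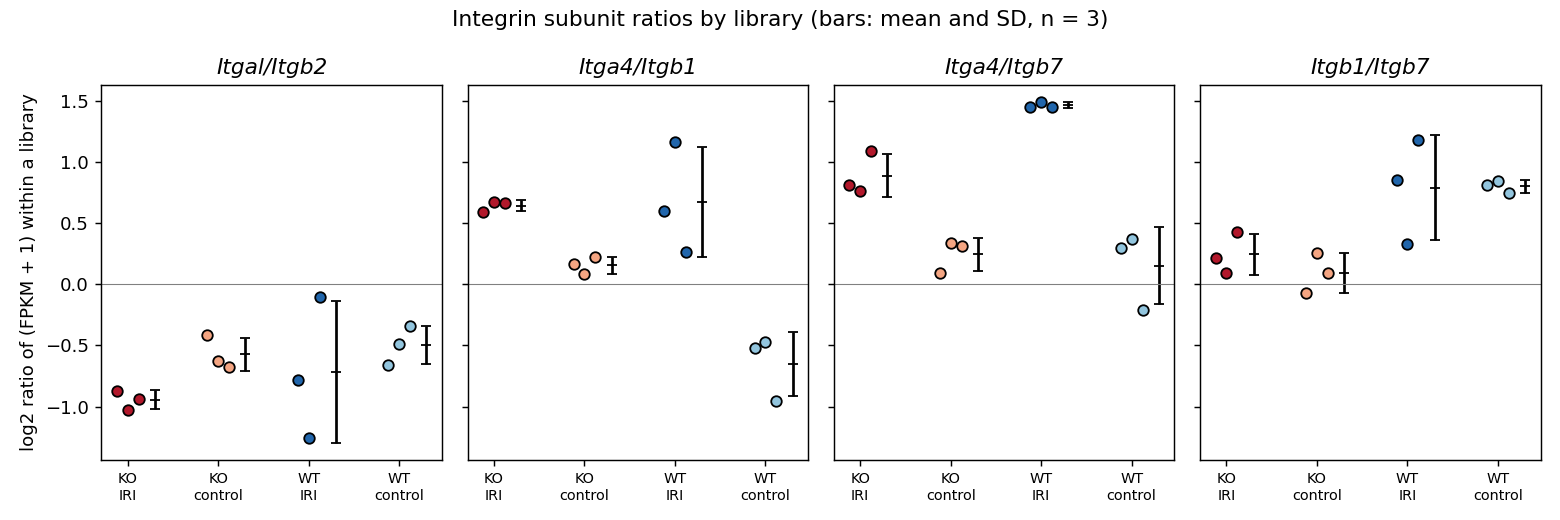
Log2 ratio of (FPKM + 1) of paired integrin chains within each library, with mean ± SD (n = 3) beside the points. The Itga4 to Itgb1 and Itga4 to Itgb7 ratios are higher in every IRI library than in every control library of the same genotype, and the Itgb1 to Itgb7 ratio averages 0.25 and 0.09 in KO IRI and KO control, against 0.79 and 0.80 in WT IRI and WT control.

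The genotypes were compared in controls, after IRI and on average. In the average over condition Itgb7 (1.06 ± 0.20, adjusted p = 0.0232), Itga4 (0.82 ± 0.20, 0.0338) and Selplg (0.77 ± 0.19, 0.0359) were higher in KO as deposited (log2 ± SE, n = 6, limma), as were 11.9% of tested genes (13.7% passed in either direction). After rescaling 0 of the 9 passed by limma, and 0.378% of tested genes were higher (0.55% in either direction). The rescaled values were 0.75 ± 0.17 for Itgb7 (adjusted p = 0.0582), 0.51 ± 0.17 for Itga4 (0.124) and 0.46 ± 0.16 for Selplg (0.149), with 3 of the 9 at an unadjusted p under 0.05, as were 21.4% of tested genes. Itgb1 (0.12 ± 0.21, adjusted p = 0.770) and Itgal (0.09 ± 0.22, 0.838) were within their SE of the rescaled median of all genes, 0.0353. Itgb2 (0.24 ± 0.13, adjusted p = 0.300) lay above that median and did not pass. As deposited the count of 3 was 0 without KO control 1, KO control 3, WT control 1 or WT control 2 and 1 without KO IRI 1, WT control 3, WT IRI 2 or WT IRI 3 (0.555%, 2.77%, 5.86% and 2.14% of tested genes). It was 0 without the 3 libraries that stand apart.

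Neither condition alone gave a call. In controls 0 of 9 passed by limma as deposited and rescaled (0.0259% and 0.0311% of tested genes higher, 0.0259% and 0.0363% in either direction), with an unadjusted p under 0.05 for 2 genes as deposited and 0 rescaled, against 20.9% and 11% of tested genes. After IRI 0 of 9 passed on either scale (0.0518% and 0.0467% higher, 0.057% in either direction on both scales), with 6 and 4 at an unadjusted p under 0.05, against 22.4% and 16.5% of tested genes. As deposited the count after IRI was 1 without KO control 2 (2.86% of tested genes). Itgb7 had the largest value, at 71.0 ± 33.4 FPKM in KO IRI, against 24.3 ± 1.51 in WT IRI (SD, n = 3), a log2 of 1.42 ± 0.28 (SE, adjusted p = 0.0835) or 1.12 ± 0.23 rescaled (0.119). It was the one gene of the set higher in every KO library than in every WT library of the same condition on both scales, as were 9.64% of tested genes as deposited and 2.28% rescaled. Itga4 did so as deposited only. T cell markers were higher in KO as well, by a log2 of 0.88 (exact permutation test within condition, p = 0.005), and relative to them Itgb7 differed by 0.19 (adjusted p = 0.27) and Itga4 by -0.05 (0.775). Relative to the markers Itgb2 was lower in KO (-0.32, exact permutation, adjusted p = 0.0386), a call that held in 3 of 12 cases with 1 library left out and not without the 3 libraries (-0.33, adjusted p = 0.1125), and Itgb1 (-0.44, 0.0675), Itgal (-0.47, 0.0573), Ccr2 (-0.36, 0.0573) and Cx3cr1 (-0.82, 0.0563) did not pass. The markers' own difference of 0.88 enters these values and was larger than the median over all tested genes, 0.292 as deposited. Itgb2 itself was higher in KO by 0.56 ± 0.17 as deposited (SE, limma adjusted p = 0.0537, averaged over condition).

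Other trafficking genes were counted by list. In the average response to IRI as deposited, 6.03% of all tested genes fell and 3.01% rose. Of 16 other leukocyte integrin subunits 1 fell and 0 rose, with 15 tested and a median log2 of 0.15, which is close to the share of all genes. The subunit that fell was Itga1, the collagen receptor chain of VLA-1, at 2.62 ± 0.481 FPKM in KO IRI, against 11.7 ± 3.69 in KO control, and 4.18 ± 0.531 FPKM in WT IRI, against 18.2 ± 3.31 in WT control (-1.83 ± 0.16, adjusted p = 0.000178). Of 22 integrin activation genes 6 fell and 1 rose, with a median of -0.29. The falls were led by Rasgrp1 (-1.35 ± 0.14, adjusted p = 0.000502), which activates Ras downstream of the T cell receptor. Apbb1ip (RIAM, -1.02 ± 0.15, 0.00302) and Tln1 (talin, -0.86 ± 0.14, 0.00477), which link Rap1 to integrin tails, and the adaptor Skap1 (-1.10 ± 0.18, 0.00372) fell with it.

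Other chemokine receptors split, with 5 of 19 lower and 3 higher (15 tested, median -0.14), against 6.03% and 3.01% of all tested genes. Cxcr6, a receptor of tissue-resident lymphocytes, fell to 24.0 ± 3.98 FPKM in KO IRI, against 104 ± 16.9 in KO control, and to 16.3 ± 6.09 FPKM in WT IRI, against 117 ± 9.69 in WT control (-2.46 ± 0.19, adjusted p = 0.000142). Cxcr3 (-1.78 ± 0.18, 0.000348), a receptor of Th1 cells, fell as well. Cxcr1, which in mouse is known from neutrophils, rose by 1.97 ± 0.25 (0.00113), to 3.76 ± 0.538 FPKM in KO IRI, against 0.201 ± 0.174 in KO control, and 4.32 ± 1.33 FPKM in WT IRI, against 0.455 ± 0.740 in WT control. Of 17 selectin and selectin ligand genes 3 fell and 0 rose (16 tested, median -0.29): the sialyltransferase St3gal6 (-1.76 ± 0.16, 0.000221), the hyaluronan receptor Cd44 (-1.13 ± 0.15, 0.00131) and the sialomucin Spn (-0.97 ± 0.17, 0.00675). Of 19 genes of chemokine receptor signalling and egress 2 fell and 0 rose as deposited (18 tested, median -0.25), Plcb2 (-1.38 ± 0.16, 0.000825) and the arrestin Arrb2 (-0.79 ± 0.21, 0.0371). After rescaling 5 of this list fell and 3 rose, against 7.33% and 6.35% of all tested genes. On that scale 8 integrin activation genes fell and 1 rose, and 2 other integrin subunits fell and 1 rose. The selectin list then had 4 lower and 0 higher, and other chemokine receptors 5 and 3. Of 13 endothelial and stromal ligands 7 were tested, Fn1 (fibronectin, 1.79 ± 0.47, 0.0401) rose and Ccl12 (-1.24 ± 0.25, 0.0119) fell, and Madcam1, Cxcl12 and Cx3cl1 were below the filter. Fn1 varied widely in KO IRI, at 21.5 ± 23.7 FPKM, against 3.93 ± 1.51 in KO control. It was 20.8 ± 5.87 FPKM in WT IRI, against 5.64 ± 4.62 in WT control, and did not pass within WT (limma adjusted p = 0.158).

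**Figure D5:**
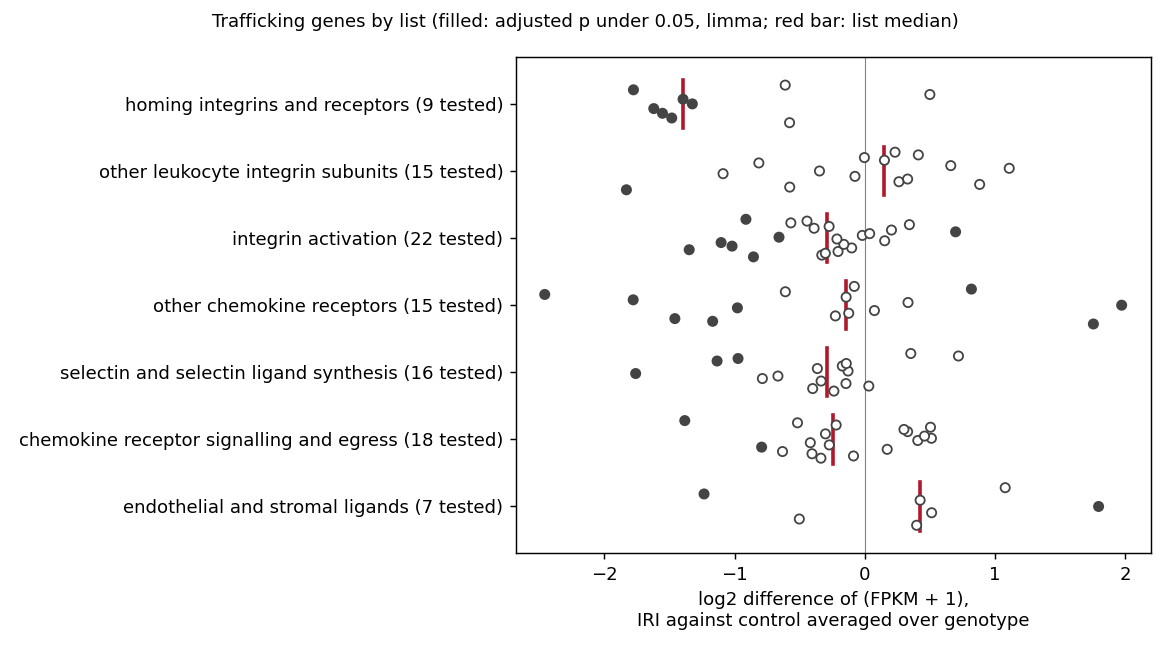
Log2 differences of (FPKM + 1), IRI against control averaged over genotype, for the tested genes of each trafficking list, 1 point per gene, filled where the adjusted p was under 0.05 and with the list median as a red bar. The 9 homing integrins and receptors have a median of -1.40, and the other lists have medians between -0.29 and 0.42.

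In the average difference between KO and WT as deposited, 11.9% of all tested genes were higher in KO (13.7% passed in either direction). Beside that share, 8 of 22 integrin activation genes rose and 0 fell. For other chemokine receptors 4 of 19 rose and 0 fell, and for signalling and egress genes 8 of 19 rose and 0 fell. Of the selectin list 3 of 17 rose and 0 fell, of other integrin subunits 2 of 16 rose and 1 fell, and of the ligands 0 passed. After rescaling those counts became 0, 1 and 0 higher, with 0 for the selectin list and 0 for the other integrins, of which Itga1 was still lower (-0.85, limma adjusted p = 0.0407). On that scale 0.378% of all tested genes were higher and 0.55% passed in either direction. The chemokine receptor higher on both scales was Ccr6, a receptor of Th17 cells, at 11.8 ± 9.01 FPKM in KO IRI and 12.5 ± 2.40 in KO control, against 1.88 ± 0.987 in WT IRI and 2.14 ± 0.824 in WT control (2.05 ± 0.32 as deposited, adjusted p = 0.0213, and 1.79 rescaled, 0.0479).

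Some markers of other cells differed after injury, and the part of those cells in the results was not tested. The counts below are for the average response to IRI, where 6.03% of all tested genes were lower and 3.01% higher. Macrophages and monocytes express Ccr2, Cx3cr1 and Itgb2. Their 11 markers summed to 95.2 to 205 FPKM in KO IRI, against 179 to 378 in KO control, and 105 to 144 in WT IRI, against 128 to 202 in WT control. These summed ranges overlapped in both genotypes. Of the 11 markers 3 fell, 1 (Cd14) rose and 7 did not pass. Ly6c2 of inflammatory monocytes read 2.29 to 3.80 FPKM in KO IRI, against 17.6 to 27.4 in KO control. In WT IRI it read 1.57 to 2.61 FPKM, against 25.2 to 60.5 in WT control. The 10 CD8 T and NK cell markers summed to 28.9 to 53.7 FPKM in KO IRI, against 87.8 to 135 in KO control, and 40.2 to 58.7 in WT IRI, against 69.9 to 77.1 in WT control, with 6 of 9 tested lower and 0 higher. B cell markers summed to at most 13.6 FPKM in the IRI groups, against 8.71 to 80.7 in the control groups, with 3 of 5 lower. Neutrophils carry Itgb2 and Cxcr1, and their 8 markers summed to 4.40 to 35.7 FPKM in KO IRI, against 2.51 to 4.48 in KO control, and 17.6 to 43.3 in WT IRI, against 3.54 to 7.25 in WT control, with 4 of 6 tested higher and 0 lower. Their defining markers were low, Ly6g at most 4.09 FPKM and listed at 0 in 1 library, S100a8 at most 13.8 FPKM and listed at 0 in 3 libraries. Of the 5 vessel markers Cdh5, Kdr, Tek and Emcn were at most 1.2 FPKM in any library, while Pecam1, which leukocytes also express, read 34.1 to 40.4 FPKM in KO IRI, against 31.3 to 51.7 in KO control, and 22.6 to 28.5 in WT IRI, against 22.8 to 38.1 in WT control. Of the 6 dendritic cell markers 2 were lower and 0 higher, and of 7 platelet and erythroid and 5 proximal tubule markers 0 passed, the last summing to as much as 278 FPKM in 1 KO IRI library.

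The profiles nearest to each gene were sought among 12065 protein-coding genes, by the mean absolute difference over the 12 libraries between rescaled log2 values centred on their means. Nearest to Cxcr4 were Neurl3 (0.11) and Rgs2 (0.13), a regulator of G protein signalling. Itgal lay nearest to Lcp1 (0.11), an actin-bundling protein of leukocytes, and to Sept11 (0.12), and Itgb2 to the tetraspanin gene Cd37 (0.09) and Rasgrp1 (0.11). Itgb7 lay nearest to Tagln2 (0.13) and Anxa6 (0.13), Itgb1 to Myo1f and Ahnak (0.16 each), and Itga4 to Cdc25b (0.09) and Plec (0.13). Ccr2 lay nearest to Fam111a (0.13) and Ptpn7 (0.14), and Selplg to Gimap1 and Trim56 (0.11 each). The nearest to Cx3cr1, St3gal6 and Gpr34 (0.27 each), were the least close of the 18. For scale, the 9 genes' own mean absolute deviations ran from 0.337 for Cxcr4 to 0.919 for Cx3cr1.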

How the data were processed

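RNA of CD4 T cells sorted from kidneys was sequenced as stranded total RNA libraries, per the labels' protocols. Per the file headers and labels, the authors deposited 1 FPKM value per gene and library, and the build GRCm38 and the tools TopHat2 2.1.0, Cufflinks 2.2.1, bcl2fastq 2.17.1.14 and Partek 7.0 stand in the submitters' processing notes. The annotation release, strand setting and scaling between libraries are not given in the sources used here. Gene IDs were paired with symbols for 52399 genes and with GENCODE M21 for 52485.

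The 19288 genes averaging 1 FPKM or more were tested with limma 3.58.1 in R 4.3.3 on log2(FPKM + 1), with a mean-variance trend, 4 group means and 8 residual degrees of freedom, and Benjamini-Hochberg adjustment over all tested genes at 0.05. The scale understates changes of low genes. Rescaled values use median ratios over 16018 genes. Single values were tested by exact permutation of libraries within strata. Alternatives were other scalings, pseudocounts and filters, protein-coding genes only, array weights, a replicate block and fewer libraries. The fit was tested on simulated data. No 2 libraries held identical values.

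The genes, lists, tests and alternatives were chosen with earlier results of these data known. The genes named are the 9 of the set, up to 4 passing genes of each list with the smallest adjusted p, and the 2 nearest profiles. Not every gene this rule selects is reported here. Marker genes and ligands below the filter fall outside this rule and were chosen after their values were seen.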

Additional observations from a re-analysis of the deposited data

How the results depend on the processing

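The 6 genes that fell in the average response to IRI passed under all 23 alternatives, and the interaction gave 0 throughout. In that average 6 to 9 genes were past the threshold, against 9.04% of tested genes as deposited. The count was 9 with array quality weights (23.9% of tested genes) and 8 with protein-coding genes only (18.2%). With 1 library left out it was 6 to 8, the 8 without KO IRI 1 (8.77%). The other counts moved. For IRI within WT (5 as deposited), scaling to a common sum gave 0, leaving out the 3 libraries that stand apart gave 0 as deposited and 5 with median ratios, and leaving out 1 library gave 3 to 6. For IRI within KO (1) the count was 3 with median ratios, 6 with protein-coding genes only (4.58% of tested genes), 7 with array quality weights (14.3%), 0 to 6 with 1 library left out, and 0 with a common sum, no filter, or without the 3 libraries on either scale. For KO against WT on average (3) it was 6 with protein-coding genes (34.7% of tested genes), 5 with array weights (38%), 0 to 4 with 1 library left out, and 0 with median ratios, quantiles, a common sum, no filter, or without the 3 libraries on either scale. For KO against WT in controls (0) it was 3 with array weights (33% of tested genes) and 0 with any 1 library left out, and after IRI (0) it was 2 with array weights (4.24%), 2 with protein-coding genes (4.57%) and 0 to 1. The cause was not tested.

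Signs turned for values that did not pass. For KO against WT in controls, median ratios gave -0.33 for Itgb1, -0.099 for Itgal, -0.0227 for Itgb2 and -0.0226 for Ccr2, quantiles -0.55, -0.29, -0.27 and -0.14, a common sum -0.24 for Itgb1 and -0.00977 for Itgal, and leaving out the 3 libraries -0.0279 for Itgb1, and with median ratios too -0.27 for Itgb1 and -0.0217 for Itgal. Itgb1 ran from -0.0632 to 0.12 with 1 library left out. After IRI a common sum gave -0.0944 for Itgal and -0.11 for Cxcr4, and Cx3cr1 was 0.0171 without the 3 libraries and -0.64 to 0.0171 with 1 left out. For the interaction a common sum gave -0.40 for Itga4, -0.0846 for Itgal and -0.0370 for Selplg, array weights -0.17 for Itga4, and median ratios without the 3 libraries 0.0216 for Cxcr4, with 1 library left out Itga4 from -0.29 to 0.29 and Cxcr4 from -0.40 to 0.11. On average quantiles gave -0.0672 for Itgb1, -0.0845 for Itgal and -0.0836 for Cx3cr1, a common sum -0.0234, -0.0521 and -0.26, and Cx3cr1 was -0.19 with median ratios, -0.0506 with a pseudocount of 0.1 and -0.0742 to 0.25 with 1 library left out.

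Without the 3 libraries the Itgal to Itgb2 ratio differed after IRI by -0.37 (exact permutation, adjusted p = 0.0444) and the Itgb1 to Itgb7 ratio by -0.0827, and the Itgb1 to Itgb7 ratio differed by -0.50 between genotypes (adjusted p = 0.1). With 1 library left out these were -0.45 to -0.16, -0.0279 to 0.19 and -0.74 to -0.53. Between genotypes the Itga4 to Itgb1 ratio differed by 0.39 with all libraries and did not pass (exact permutation p = 0.065, adjusted p = 0.13). It differed by 0.28 to 0.51 with 1 library left out and by 0.21 without the 3 libraries. Over its 15 alternatives the adjusted p of that permutation test ran from 0.02 to 0.4. With the replicate number as a block the counts were 5 for IRI within WT (2.85% of tested genes), 1 within KO (0.741%) and 6 on average (8.02%). For KO against WT on average it was 4 (8.75%). Deviations of same-numbered libraries correlated at -0.0337 to 0.206, over 0.1 in 1 of 18 pairs, WT IRI 3 with WT control 3. Pairs with different numbers were not set beside them, so these values do not exclude a pairing by number. FPKM gives no counts, so what depth limits cannot be stated.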
